A study of Homo sapiens with 14 samples.

Results

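The genes of the SLC25 family whose symbols start with SLC25A accounted for 384 of the 114349 splice events listed for HEK293T cells by RNA-Seq. Events of every type were taken when the mean number of junction reads, averaged over both genotypes, was at least 10. This left 307 events in 37 genes, of 94061 such events in all genes. Of these 307, 33 had the same inclusion level in every library, 31 at 1 and 2 at 0, and the other 274 were compared. The remaining 77 events, among them all those of SLC25A35 and SLC25A48, had fewer reads and were not compared.

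HEK293T is a line of human embryonic kidney origin. The study compared isogenic HEK293T cells with SF3B1-K700K (WT, 3 libraries) and with SF3B1-K700E at the endogenous locus (MT, 3 libraries), with no treatment named for either. The sources used here do not say whether the lines are single clones or whether the libraries came from separate cultures, so p-values measure the spread between these libraries, which may be technical. The table holds no expression levels, so neither the markers of the line nor the mutation was checked. It lists 6 MT values per event but has columns for 3 of them, which were taken as the MT libraries, and it is not settled that these are the 3 MT samples. Mean reads of MT, given per library below, are the authors' means over all 6 values.

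SLC25 proteins carry nucleotides, cofactors, amino acids, carboxylates, phosphate and metals across membranes, most of them through the inner mitochondrial membrane. Each is built from repeats of a pair of transmembrane helices. SF3B1 belongs to the U2 snRNP, which recognises the branch point at the 3' end of introns, and hotspot mutants such as K700E are known for the use of cryptic 3' splice sites a short distance upstream of the normal one.

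The inclusion level of an event is the share, from 0 to 1, of transcripts that hold the longer form: a cassette exon, the stretch between a pair of alternative 3' or 5' splice sites, or a retained intron. For a choice between a pair of exons (mutually exclusive exons, MXE), it is the share of the exon that comes first in the transcript. Differences are the MT mean minus the WT mean of the level. Of the 274 events, 176 were cassette exons, 62 MXE, 18 alternative 3' sites, 10 alternative 5' sites and 8 retained introns. In 57 of the 62 MXE both exons stand together in at least 1 annotated transcript, so their level compares junctions that a single transcript can give.

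The sequences of the SLC25A36 exons and of the paired 3' sites are shown because the results on the most displaced gene and on cryptic-site distances refer to them. All are from hg38 and read in the sense of the transcript, with the AG that ends the intron in capitals. The first 3 give the bases around the 3' splice sites of the SLC25A36 alternative exons, on the plus strand of chromosome 3.
SLC25A36, 87-base exon, chr3:140966328-140966357: tcctgttttttgttttgtAGaacacaagaa
SLC25A36, 103-base exon, chr3:140966914-140966943: aaagcctgtgtctattttAGgcatttactg
SLC25A36, 37-base form of that exon, chr3:140966980-140967009: ctcatgctccccatccgcAGgtcacttcct
The next 4 run from the AG of the upstream site to the AG of the downstream site of the alternative 3' sites that lie 10 to 30 bases apart.
SLC25A39, 24 bases apart, chr17:44322529-44322554, minus strand: AGtgccctcctctctccaatccacAG
SLC25A39, 18 bases apart, chr17:44320732-44320751, minus strand: AGtgcatcccccaccccaAG
SLC25A10, 27 bases apart, chr17:81717755-81717783, plus strand: AGgccgctggtgacgagccccctcctcAG
SLC25A44, 24 bases apart, chr1:156207860-156207885, plus strand: AGccattgtctttccctggattccAG

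SLC25A splicing in HEK293T cells was for the most part fixed, and no event of the family passed the test between genotypes. In WT, 142 of the 274 events had a mean level over 0.9, 62 under 0.1 and 70 in between. Most events of all genes lay near the limits too: of 83581, 49512 were over 0.9, 11848 under 0.1 and 22221 in between. By limma with Benjamini-Hochberg adjustment over 83581 events, 0 of 274 were called at an adjusted p under 0.05 with a difference over 0.1, against 26 of 83581 events in all genes (0.0311%). At an unadjusted p under 0.05 there were 16 SLC25A events (5.84%), against 4.47% of all events.

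The size of the differences was close to that of all genes. The median absolute difference was 0.0145 for SLC25A events and 0.0137 for all events, and the median SD within a genotype was 0.0235 and 0.0243. The level was higher in MT in 131 SLC25A events and lower in 142. Read depth was similar, with a median of 79.1 junction reads per library and event, against 82.4 for all genes. Between a WT and an MT library, SLC25A levels differed by 0.0420 to 0.0530 on average, and libraries of the same genotype differed by 0.0386 to 0.0489 (WT) and 0.0453 to 0.0546 (MT).

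Differences over 0.1 were found in 24 SLC25A events (8.76%), against 5.8% of all events. In 9 of them (3.28%) the libraries of the 2 genotypes did not overlap, against 1.73% of all events. Among events with 100 reads or more, 1 of 113 of SLC25A differed by over 0.1 (0.885%), against 0.856% in all genes. At that depth 0 SLC25A events did so with separate libraries, against 0.428% in all genes. Of the 24 events, 13 were higher in MT and 11 lower, and their median depth was 26.4 reads. SLC25A36 had 8 of the 24. SLC25A26 and SLC25A30 had 2 each, and SLC25A14, SLC25A16, SLC25A37, SLC25A38, SLC25A39 and SLC25A40 had 1 each. Events of a gene share exons and junctions and are not independent of each other.

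**Figure D1:**
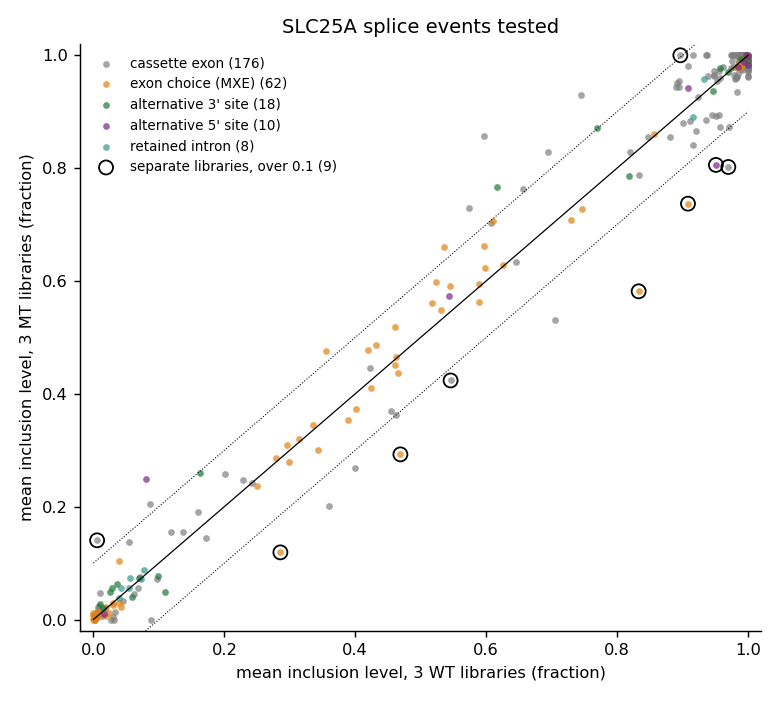
Mean inclusion level (fraction) over the 3 WT libraries on the x axis and over the 3 MT libraries on the y axis for the 274 SLC25A events, coloured by event type, with dotted lines at a difference of 0.1. Most events lie at the corners near 0 and 1, and the 9 circled events differed by more than 0.1 with no overlap between the libraries of the genotypes.

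Taken by the role of the carrier, the carriers of pyrimidine nucleotides and other cofactors held 16 of the 24 differences over 0.1, out of 65 events tested in 6 genes (24.6%), and 7 of the 9 with separate libraries (10.8%). Over all events tested these shares were 5.8% and 1.73%. The differences were not spread over the group: 8 of the 16 were of SLC25A36, in events that share exons, and SLC25A32, SLC25A33 and SLC25A51 had 0. The median depth of these 65 events was 60.3 reads and their median SD within a genotype was 0.0417, which are shallower and more variable than for the family as a whole. None of the 53 events of adenine nucleotide carriers and none of the 31 events of carboxylate and acylcarnitine carriers differed by more than 0.1. Such a difference was found in 1 of 39 events of amino acid carriers, in 3 of 53 of phosphate, metal and glutathione carriers, in 3 of 18 of the uncoupling protein relatives and in 1 of 14 of outer membrane or poorly known members.

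**Figure D2:**
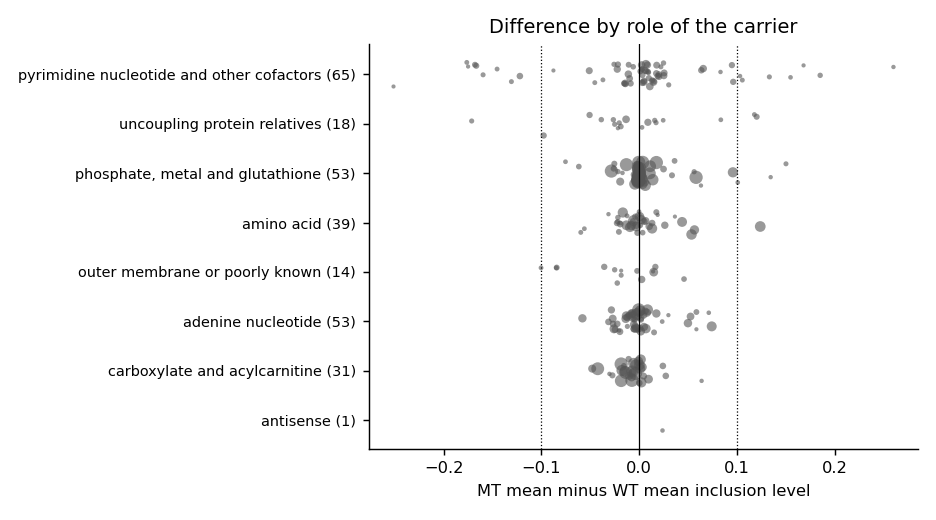
Difference in inclusion level (MT mean minus WT mean) of each tested event by the role of the carrier, with the number of events in parentheses; larger points have more junction reads and dotted lines mark 0.1 in either direction. The points outside the dotted lines are mostly small and belong mostly to the pyrimidine nucleotide and cofactor group, whose differences ran from -0.251 to 0.260.

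SLC25A36, which carries pyrimidine nucleotides into mitochondria, had the largest differences of the family, all at a group of short exons on chromosome 3 that the annotation places in transcripts marked for nonsense-mediated decay (NMD). Of its 16 annotated transcripts, 1 holds the 87-base exon (chr3:140966348-140966434), 2 hold the 103-base exon (chr3:140966934-140967036) and 2 hold the 37-base form (chr3:140967000-140967036), which starts at the downstream 3' site shown above and shares the end of the 103-base exon. No annotated transcript holds the 87-base exon together with either of them.

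The 87-base exon against the 103-base exon had levels of 0.251, 0.217 and 0.389 in the WT libraries and of 0.165, 0.086 and 0.106 in the MT libraries, with a mean of 60.4 reads. All MT libraries were below all WT libraries. The means were 0.286 ± 0.0911 and 0.119 ± 0.0411 (SD, n = 3), a difference of -0.167 with an unadjusted limma p of 0.0113 and a Benjamini-Hochberg adjusted p of 0.856. The 87-base exon had a mean of 15.7 junction reads per library in WT and 9.0 in MT, and the 103-base exon 39.0 and 57.2. Leaving out any 1 library gave differences from -0.201 to -0.115.

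The 87-base exon against the 37-base form had levels of 0.399, 0.418 and 0.590 in the WT libraries and of 0.384, 0.217 and 0.277 in the MT libraries, with a mean of 25.9 reads. The genotypes were again separate, by 0.015 between the highest MT and the lowest WT library. The difference was -0.176, with a limma p of 0.110 unadjusted and 0.856 after Benjamini-Hochberg adjustment. Leaving out 1 library at a time gave -0.222 to -0.116, the last without the third WT library. The reads of the 87-base exon are the same as in the choice against the 103-base exon. Another event with the same pair of exons and another flanking exon had 10.4 reads, with levels of 0.706, 1.000 and 0.793 in the WT libraries and of 0.700, 0.418 and 0.627 in the MT libraries.

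Inclusion of the 87-base exon against its skipping was on average lower in MT in all 3 of its cassette events, but the genotypes overlapped in each. With 31.1 reads, levels were 0.311, 0.187 and 0.583 in the WT libraries and 0.227, 0.119 and 0.256 in the MT libraries. The third WT library was far above the other two there and in the event with 28.9 reads, where it stood at 0.713 against 0.246 and 0.240. The differences of the 3 events were -0.160, -0.131 and -0.175, the last with 12.5 reads.

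In the cassette event of the 103-base exon with the 87-base exon upstream, WT levels were 0.862, 0.659 and 0.714. MT levels were 1.000, 0.857 and 0.934, with 40.1 reads. The lowest MT library was 0.005 under the highest WT library, and the other MT libraries were above all of WT. The difference was 0.185 with a limma p of 0.00679, which Benjamini-Hochberg adjustment brought to 0.803. Its 37-base form in the same place gave 0.834, 0.507 and 0.447 in the WT libraries and 1.000, 0.725 and 0.844 in the MT libraries, with 15.5 reads. This was the largest difference of the family, 0.260, with overlapping genotypes. Both events rest on the same skipping reads, with a mean of 5.67 per library in WT and 3.17 in MT. These are themselves reads of the 87-base exon. Since no annotated transcript holds it with either form, the inclusion reads may come from transcripts without the 87-base exon. The differences of both events are therefore not separate from the lower level of the 87-base exon.

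The choice between the 103-base exon and its 37-base form, a pair of 3' sites 66 bases apart, differed less than the libraries of a genotype did. With 81.2 reads, the longer form stood at 0.920, 0.98 and 0.941 in the WT libraries and at 0.889, 0.955 and 0.968 in the MT libraries, a difference of -0.00967. The second event of this pair had a difference of 0.0190. The most read SLC25A36 event, upstream of these exons, compared a 165-base exon with a 78-base exon and stood at 0.523, 0.735 and 0.507 in the WT libraries and at 0.400, 0.701 and 0.685 in the MT libraries with 134.0 reads. Its difference of 0.00700 changed sign when single libraries were left out.

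**Figure D3:**
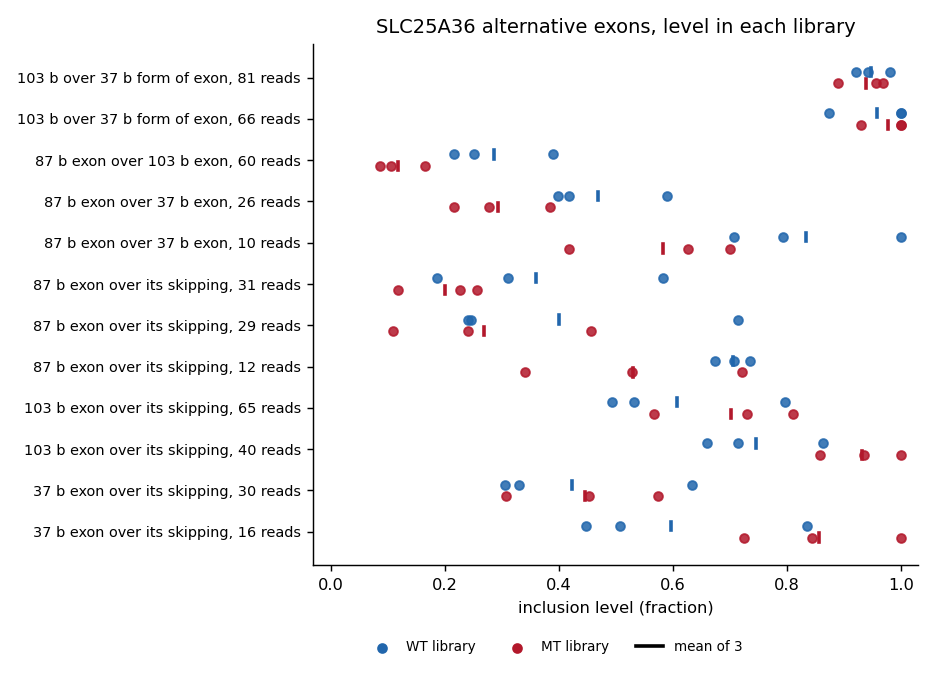
Inclusion level (fraction, x axis) of the 12 SLC25A36 events with the 87-base, 103-base or 37-base exon, with 1 point per WT or MT library, a bar at the mean of 3, and the mean junction reads beside each event. The 87-base exon lies lower in MT against both other exons, and the genotypes overlap in the events that set the 103-base and the 37-base form against each other.

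SLC25A26, which brings S-adenosylmethionine into mitochondria, showed differences of opposite sign for the same 157-base exon (chr3:66236544-66236700, plus strand). With the nearer downstream exon, the level was 0.606, 0.531 and 0.50 in the WT libraries and 0.429, 0.429 and 0.413 in the MT libraries, with 73.9 reads. The libraries were separate and the difference was -0.122, with a limma p of 0.0787 unadjusted and 0.856 after Benjamini-Hochberg adjustment. With a farther downstream exon and 16.2 reads, the level was 0.926, 0.882 and 0.882 in the WT libraries and 1.000 in all 3 MT libraries, a difference of 0.103. That event had a mean of 1.00 skipping read per library in WT and 0.167 in MT. The exon is part of 11 of 22 annotated transcripts, 5 of them marked for NMD.

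SLC25A33, SLC25A32 and SLC25A51 of the same group had smaller differences. SLC25A33, a second pyrimidine nucleotide carrier, had 9 events with differences from -0.0510 to 0.0657. SLC25A32, which carries folate and FAD, had 3 events from -0.0223 to 0.0963, and the single event of SLC25A51, the NAD carrier, differed by 0.0203.

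Among the uncoupling protein relatives, SLC25A30 had a 148-base exon (chr13:45408927-45409074, minus strand) whose junctions, set against those of a 95-base exon (chr13:45405883-45405977), gave 0.931, 0.941 and 0.853 in the WT libraries and 0.727, 0.636 and 0.848 in the MT libraries, with 32.7 reads. The genotypes were separate by 0.005, since the third WT library and the third MT library were close. The difference was -0.171, with a limma p of 0.0325 and 0.856 after Benjamini-Hochberg adjustment. Both exons stand together in 3 of 8 annotated transcripts. The most read event of the group, a 148-base exon of SLC25A14, stood at 0.971, 1.000 and 0.965 in the WT libraries and at 0.974, 1.000 and 0.922 in the MT libraries.

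**Figure D4:**
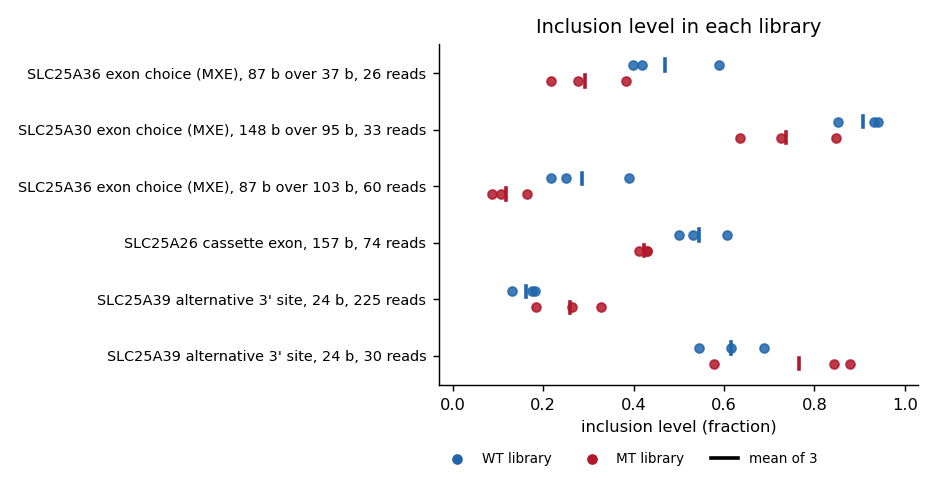
Inclusion level (fraction, x axis) in each library for 4 events with separate libraries, a difference over 0.1 and at least 20 reads in each genotype, and for the 2 SLC25A39 events with 3' sites 24 bases apart; bars are means of 3. The MT points lie left of the WT points in the first 4 events and, but for 1 library, to the right in the SLC25A39 events.

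The carriers of phosphate, metals and glutathione were read deepest, with a median of 279.75 reads per event. SLC25A3, the phosphate carrier, is known for a pair of alternative exons, one of them used mostly in heart and skeletal muscle. The most read choice of this kind set a 229-base exon (chr12:98595433-98595661) against a 122-base exon (chr12:98595727-98595848) and gave 0.003, 0.001 and 0.004 in the WT libraries and 0.005, 0.001 and 0.000 in the MT libraries, with 1856 reads. A 125-base form of the first exon (chr12:98595433-98595557), found in 3 coding transcripts, gave 0.002, 0.000 and 0.003 in the WT libraries and 0.002, 0.001 and 0.000 in the MT libraries, with 1854 reads. In both genotypes the 122-base exon thus had nearly the whole of the level. The most read SLC25A3 event, a 111-base exon, had levels of 0.999 or 1.000 in all 6 libraries with 2145 reads.

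SLC25A39, a glutathione carrier, had the alternative 3' site with the most reads among those 10 to 30 bases apart. The upstream of the sites 24 bases apart (first SLC25A39 sequence above) was used at 0.132, 0.182 and 0.176 in the WT libraries and at 0.185, 0.329 and 0.264 in the MT libraries, with 225 reads. All MT libraries were above all WT libraries, the lowest by 0.003. The means were 0.163 ± 0.0273 and 0.259 ± 0.0721 (SD, n = 3), and the difference of 0.0960 had a limma p of 0.0190, with 0.856 after Benjamini-Hochberg adjustment. Leaving out 1 library at a time gave 0.0612, without the second MT library, to 0.133.

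The same pair of SLC25A39 sites joined to another upstream exon had 30.5 reads. Levels were 0.615, 0.545 and 0.688 in the WT libraries and 0.878, 0.844 and 0.577 in the MT libraries. The first 2 MT libraries were above all of WT, and the third was below 2 of the WT libraries. The difference was 0.150, and it was 0.0945 without the first MT library and 0.245 without the third. The longer form is part of 5 of 17 annotated transcripts, 3 of them coding, so the upstream site is an annotated one.

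The other close pairs of 3' sites had smaller differences, higher in MT in 2 and lower in 1. The SLC25A39 sites 18 bases apart gave 0.085, 0.054 and 0.068 in the WT libraries and 0.046, 0.096 and 0.081 in the MT libraries with 181.5 reads, a difference of 0.00533 whose sign depended on single libraries. SLC25A10, the dicarboxylate carrier, used its upstream site at 0.024, 0.022 and 0.063 in the WT libraries and at 0.063, 0.053 and 0.075 in the MT libraries with 74.6 reads, a difference of 0.0273 that stayed positive, from 0.0202 to 0.0407, when single libraries were left out. In SLC25A44, a carrier of branched-chain amino acids, the levels were 0.078, 0.146 and 0.103 in the WT libraries and 0.038, 0.000 and 0.110 in the MT libraries with 27.6 reads, a difference of -0.0597 that was -0.0350 without the second MT library and -0.0900 without the third. The genotypes overlapped in all 3.

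Of the 18 alternative 3' site events tested, 11 were higher and 6 lower in MT for the longer form, 2 differed by more than 0.1 and 0 of these had separate libraries. Over all genes, 8.71% of 5351 alternative 3' site events differed by more than 0.1 and 3.49% did so with separate libraries. Pyrimidines made up 80% of the 20 bases before the AG of the upstream and 85% before that of the downstream SLC25A39 site 24 bases apart, and 80% and 70% at the SLC25A39 sites 18 bases apart. They made up 55% and 65% in SLC25A10 and 65% and 75% in SLC25A44. The medians over 997 tested events with sites 10 to 30 bases apart were 65% and 70%.

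SLC25A40, a relative of SLC25A39, had a 110-base exon (chr7:87841932-87842041, minus strand) annotated in 1 of 8 transcripts, which is marked for NMD. It was read at 0, 0 and 0.017 in the WT libraries and at 0.045, 0.20 and 0.176 in the MT libraries, with 15.7 reads. The genotypes did not overlap, and the difference was 0.135 with an unadjusted limma p of 0.0287, which was 0.856 after Benjamini-Hochberg adjustment. Inclusion had a mean of 0.333 junction reads per library in WT and 1.17 in MT.

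Among the carriers of adenine nucleotides, of carboxylates and of amino acids, the most read event of each group was an exon included in nearly all transcripts. The most read event of the family was a 487-base exon of SLC25A5, an ADP/ATP translocase, with 3915 reads and levels of 1.000 in 5 libraries and 0.999 in the third MT library. A 116-base exon of SLC25A1, the citrate carrier, stood at 1.000, 0.977 and 0.989 in the WT libraries and at 1.000, 0.970 and 0.974 in the MT libraries with 745 reads. A 167-base exon of SLC25A38, a glycine carrier needed for haem synthesis, stood at 0.991, 1.000 and 0.992 in the WT libraries and at 0.985, 1.000 and 0.981 in the MT libraries with 262.5 reads. Every level of these most read exons was 0.97 or higher, in both genotypes.

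SLC25A38 also had the most deeply read difference over 0.1, and was chosen here after its values were seen. It set a 180-base exon (chr3:39391441-39391620) against a 169-base exon at 0.504, 0.643 and 0.460 in the WT libraries and at 0.580, 0.698 and 0.701 in the MT libraries, with 250.7 reads. The second and the third MT library were above all of WT and the first was below the second WT library. The difference was 0.124 with a limma p of 0.0152 and 0.856 after Benjamini-Hochberg adjustment.

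Among members with other sites of action, a 58-base exon of SLC25A46, an outer membrane protein of mitochondrial dynamics, was at 0.988, 0.989 and 0.978 in the WT libraries and at 1.000 in all 3 MT libraries with 158 reads, a difference of 0.0150 with a limma p of 0.0174 that was 0.856 after Benjamini-Hochberg adjustment. The only antisense gene, SLC25A25-AS1, had 1 event, a 126-base exon at 1.000, 0.818 and 1.000 in the WT libraries and at 1.000, 0.889 and 1.000 in the MT libraries with 18.4 reads. The second library of both genotypes was the lowest.

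Separate libraries with a smaller difference were seen in 16 further events, so 25 of the 274 (9.12%) were separate in all, against 5.46% of all events. With 100 reads or more, 7 of 113 were separate (6.19%), against 5.07% in all genes. In 3 of the 25 every MT library was at 1 and in 2 every MT library was at 0. Every WT library was at 1 in 0 of the 25 and at 0 in 0. Over all genes, 4564 events were separate, with every MT library at 1 in 210 and at 0 in 65. Every WT library was at 1 in 452 of these and at 0 in 74. The 2 SLC25A events with MT at 0 were overlapping exons of SLC25A17, a peroxisomal cofactor carrier, picked out for this pattern. The 53-base exon stood at 0.031, 0.029 and 0.034 in the WT libraries and at 0 in the MT libraries with 76.4 reads, and the 83-base exon at 0.019, 0.024 and 0.037 in the WT libraries and at 0 in the MT libraries. Both are found in 2 of 17 transcripts, marked for NMD, and had the same mean reads, 3.67 for inclusion and 74.3 for skipping in WT. Over all 6 listed MT values, the mean for inclusion was 0.833 reads, so some of the MT values without a column were not at 0.

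By where the alternative part lies in the annotation, differences over 0.1 were found in 8 of 194 events in coding sequence (4.12%), in 11 of 42 events found only as coding sequence of NMD transcripts (26.2%) and in 5 of 38 events in untranslated or noncoding parts (13.2%). Of the 11, 8 were of SLC25A36. An MXE was placed by its first exon alone, and the same shares were not computed over all genes. In coding sequence 124 of the 194 events had a WT mean over 0.9, and in the NMD group 6 of 42. Among alternative stretches whose length is a multiple of 3, 8 of 68 differed by more than 0.1, and among the other lengths 10 of 136 did. These groups rest on length alone, whether or not the stretch is coding. The 8 include cassette events of the 87-base exon of SLC25A36, which is annotated only in an NMD transcript.

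Other genes of mitochondrial transport, such as the VDAC channels, the calcium uniporter, the pyruvate carrier and the TIM and TOM translocases, gave 290 tested events in 46 of 56 genes listed. By limma 0 of these were called, 9 had an unadjusted p under 0.05 (3.10%), 15 differed by more than 0.1 (5.17%) and 4 of these had separate libraries (1.38%). The SLC25A shares were 5.84%, 8.76% and 3.28%. The other genes were read deeper, with a median of 154.6 reads per event, and had a median SD within a genotype of 0.0137.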

How the data were processed

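RNA-Seq of HEK293T cells (3 WT, 3 MT libraries) was analysed, with groups from the labels. According to the study's methods, stranded paired-end libraries were made from total RNA and splicing was compared with the rMATS model. The submitters' processing notes name STAR, StringTie and BWA and the build GRCh38, with versions not given in the sources used here. The authors' deposited table gives each inclusion level as a fraction, the length-normalised share of the inclusion form, with 3 decimals, and the mean junction reads of each genotype as a signal, over 3 WT and 6 MT values. It lists 6 MT values per event, of which entries 1, 2 and 6 have columns and were used. The authors' columns of their comparison (difference, p-value, FDR) were not used, and DRIP-seq peak lists were not analysed here.

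Levels were compared as the arcsine of the square root by limma 3.58.1 in R 4.3.3, with a variance trend on mean reads, for all 83581 events with a level in 6 libraries, a mean of at least 10 reads and levels that varied, with Benjamini-Hochberg adjustment over these. Reads bound the precision: the median event had 82.4, and reads per library were not used because MT counts were not matched to samples. An exact permutation test of 3 libraries against 3 cannot go below 0.1. The fit was tested on simulated levels that varied by read sampling alone. The planted changes were larger than any SLC25A difference, so this does not show how often smaller ones would be found. The members, lists and role groups were chosen with earlier results of these data known. Named were events called, events with separate libraries, a difference above 0.1 and 20 reads in each genotype, the most read event of each role group, the most read MXE of SLC25A3, and alternative 3' sites 10 to 30 bases apart. The other events were described after their values were seen. Exons were placed in transcripts of the GENCODE annotation of hg38, where 176 of 176 cassette exons followed an AG. In 3609 of 3609 MXE compared with cassette events, the inclusion reads were those of the exon first in the transcript. Alternatives were a logit scale, no variance trend, other read minimums, other limits on the difference, leaving out each library and a block on the column number. The events of 1 gene count in all totals but are not reported here by themselves.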

Additional observations from a re-analysis of the deposited data

How the results depend on the processing

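No SLC25A event and no event of the other mitochondrial transport genes was called by limma under any alternative run, with 11 to 22 SLC25A events at an unadjusted p under 0.05 and a lowest adjusted p between 0.164 (no variance trend) and 0.894. Over all genes, 26 events were called, against 0 on a logit scale, 0 without a variance trend and 3 to 13 when single libraries were left out; the cause was not tested for the first 2, and the last rest on fewer samples. The 9 SLC25A events with separate libraries and a difference over 0.1 became 16 at a limit of 0.05 and 1 at 0.2, as looser and stricter limits must, and 12 to 17 without single libraries, since fewer libraries overlap less. They were 6 of 249 tested with a mean of 20 reads, 8 of 267 with 10 reads in each genotype and 11 of 316 with no minimum. For the alternative runs the shares over all events are not given here, so these SLC25A counts are not set against a background. Of the named events, the sign turned when single libraries were left out for SLC25A25-AS1 (-0.0370 to 0.0607), the most read SLC25A36 exon choice (-0.0458 to 0.105), the SLC25A14 exon (-0.0307 to 0.00833), the SLC25A3 exon choice (-0.00217 to 0.000333) and the SLC25A39 sites 18 bases apart (-0.00550 to 0.0195). The WT and MT columns share the numbers 1 to 3, but those of MT were not matched to the labels. Deviations from the genotype mean correlated by 0.100, 0.0970 and 0.0270 over all events between columns of the same number, each column's best match in the other genotype, which is a hint from the data and not from the design. With the number as a replicate block, a fit added after seeing the data, 12 events were called over all genes and 0 of SLC25A, with 18 of SLC25A at an unadjusted p under 0.05. The planned test on counts was not run because MT counts per library were not matched to samples. Depth limits the results most where they are largest, since the 24 differences over 0.1 had a median of 26.4 reads.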
